A study of Homo sapiens with 6 samples.

Results

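Histone genes are the members described here: every gene of the expression table whose symbol, in the newer or the older nomenclature, names a core or linker histone. The rule took 69 of the 15953 genes, without use of any measured value. Of these, 60 are clustered genes, named HIST1H to HIST4H before renaming, and 9 are variant genes, named H1F, H2AF or H3F before. By the letters of their symbols, MACROH2A1, MACROH2A2, H2AJ and CENPA were left out of the members. The study asked how STIL, a centriole assembly protein, acts in bladder cancer, and RNA-seq was done in EJ, a long-established line of human bladder cancer cells. The control group, shNC, held 3 libraries of EJ cells with a negative control lentivirus, and the shSTIL group held 3 libraries of EJ cells with a STIL knockdown lentivirus, both described as stable lines. No other allele or agent is named for either group, and the hairpin sequence and the number of clones are not given in the sources used here. Since nothing states that the libraries came from separate cultures, p-values measure the spread between these 6 libraries, which may be technical.

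Nucleosomes wrap DNA around a core of the histones H2A, H2B, H3 and H4, and the linker histone H1 binds where DNA enters and leaves. The clustered genes have no introns as a rule, are copied in S phase to supply histones for new DNA, and give mRNAs that end in a conserved stem-loop, bound by the protein SLBP, in place of a poly(A) tail. Some of them can also give longer, polyadenylated transcripts, and the variant genes give polyadenylated mRNAs that are made outside S phase as well.

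The stem-loop is the sequence that sets most clustered genes apart from the rest of the transcriptome, so it is shown here for the members that carry the results. It was searched for as 16 letters that begin with GG, end with CC, hold the loop letters TTNTNA in the middle and pair into a stem, on the transcript strand only, in the first 100 bases after the stop codon of 1 GENCODE 29 transcript a gene. In the lines below the 16 letters of the stem-loop are in capitals, from chr1:149886181-149886210 (minus strand) for H2BC21, chr6:26124662-26124691 (plus strand) for H2AC6, chr6:26252048-26252077 (plus strand) for H2BC9, chr1:149842216-149842245 (minus strand) for H2AC18 and chr11:119094891-119094920 (minus strand) for H2AX, all on GRCh38.
H2BC21: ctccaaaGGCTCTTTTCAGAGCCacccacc
H2AC6: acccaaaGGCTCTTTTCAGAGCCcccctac
H2BC9: acccaaaGGCTCTTTTCAGAGCCacttaat
H2AC18: ctcaaaaGGCTCTTTTCAGAGCCacccacg
H2AX: ccacaaaGGCCCTTTTAAGGGCCaccaccg
The 4 clustered genes shown shared the same 16 letters, and H2AX, a variant gene, had a stem of other bases. The annotated transcripts of H2BC21, H2AC6, H2BC9 and H2AX, of 2194, 1654, 2060 and 1614 bases, run on well past the stem-loop. Whether the reads came from mRNA that ends at the stem-loop or from longer transcripts was not tested. Where all 100 bases could be read, the letters stood in 22 of 27 clustered genes and in 1 of 9 variants, H2AX. They stood in 23 of 14502 coding genes of the table (0.159%), so each of those 23 was a member. The 5 clustered genes read in full without the letters were all H2B genes: H2BC4, H2BC5, H2BC11, H2BC15 and H2BC18. Other transcripts of these genes were not searched, so the search cannot show that the genes lack a stem-loop. For H2BC5 the transcript read had 789 bases, in a gene annotated over chr6:26158146-26171349. For 27 of the 60 clustered genes, among them H2BC12, H1-2 and H2AC20, the annotated transcript ended within 16 bases of the stop codon, and the stem-loop could not be read.

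The octamer, ATTTGCAT or its reverse complement ATGCAAAT, is a known promoter element of H2B genes, where it is bound by the factor OCT1. It is shown because it stood in the promoters of all the H2B genes that are described with a change below, except H2BC15. Promoters were the RefSeq windows of GRCh38.p14 from 250 bases before to 50 bases after the gene's start, both strands were searched, and the octamer is in capitals. The site of H2BC21 lies at chr1:149886710-149886739 (minus strand), that of H2BC12 at chr6:27146886-27146915 (minus strand), that of H2BC9 at chr6:26251554-26251583 (plus strand), and that of H2AC6 at chr6:26124031-26124060 (plus strand).
H2BC21: tcggagccctaATTTGCATaaggtggttat
H2BC12: ctcttcaccttATTTGCATgagaggtccta
H2BC9: attaagcacctATTTGCATaaaagacctac
H2AC6: tgggcagagctATGCAAATgaggtatgaaa
The octamer stood in 12 of 15 H2B and 10 of 14 H2A promoters of the clustered genes, in 1 of 12 H3 promoters and in 0 of 4 H1 and 0 of 11 H4 promoters. Over all 12623 promoters of the table it stood in 1.52%. It was present in 24 members at 16 distinct sites, and 7 of these sites lay in the promoters of more than 1 member, since many H2A and H2B genes are transcribed away from each other from a shared stretch. The site of H2BC21 was also the site of H2AC20, and that of H2AC6 was also that of H2BC4. Among the variants the octamer stood in the H3-3B promoter only, of 7 that could be read. CCAAT stood in 100% of the clustered H1, H2A, H2B and H3 promoters and in 2 of 11 H4 promoters (36.3% of all promoters), and TATAAA stood in 69.6% of the clustered promoters (7.13% of all).

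The depth was 16214800 to 16431200 reads in the shNC libraries and 16734500 to 16901600 in the shSTIL libraries, and the deposited values were log2 CPM, reads scaled to the size of the library on a log2 scale. STIL had 1011, 1114 and 1024 reads in the shNC libraries and 282, 284 and 272 in the shSTIL libraries, 25.0% of the control CPM. Urothelial markers were in part absent from EJ cells: KRT7 had at least 1345 reads in each library, but KRT5, KRT20, UPK2 and CDH1 had at most 5, and 6 of the 16 urothelial and epithelial markers in the table stayed under 10 reads in every library. The summed level of these 16 markers was 1106 to 1165 CPM in shNC and 1000 to 1033 CPM in shSTIL. KRT18 and KRT8 held most of this sum, at 640 and 378 CPM in shNC and 618 and 233 CPM in shSTIL. KRT8 was lower in shSTIL (log2 fold change -0.70) and KRT7 higher (0.49). Of the leukocyte markers only CD14, 1 of 3 listed, was in the table, and it reached at most 0.234 CPM in any library. The 3 endothelial markers summed to at most 0.981 CPM in any library. Of 4 fibroblast markers 2 were in the table, and they summed to 2.64 to 4.11 CPM in shNC and 1.94 to 2.22 in shSTIL. The mesenchymal markers VIM, CDH2 and FN1 summed to 1542 to 1583 CPM in shNC and 949 to 971 in shSTIL, and the part of this shift in the histone values was not tested.

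The 2 classes differed widely in level. The 9 variant genes summed to 1993 CPM ± 11.8 (SD, n = 3) in shNC and 1782 CPM ± 44.1 in shSTIL, against 52.3 ± 0.961 and 65.1 ± 1.68 CPM for the 60 clustered genes. Variants thus held 97.4% of all histone reads in shNC and 96.5% in shSTIL. Of the clustered genes, 10 reached a mean of 10 reads a library, 32 had a mean under 3 reads, 18 held 0 to 3 reads in every library, and 30 had 0 reads in at least 1 library, which is the count that limits what can be seen of them. Which RNA was selected for the libraries (poly(A) or other) is not given in the sources used here, and its part in these low counts was not tested.

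**Figure D1:**
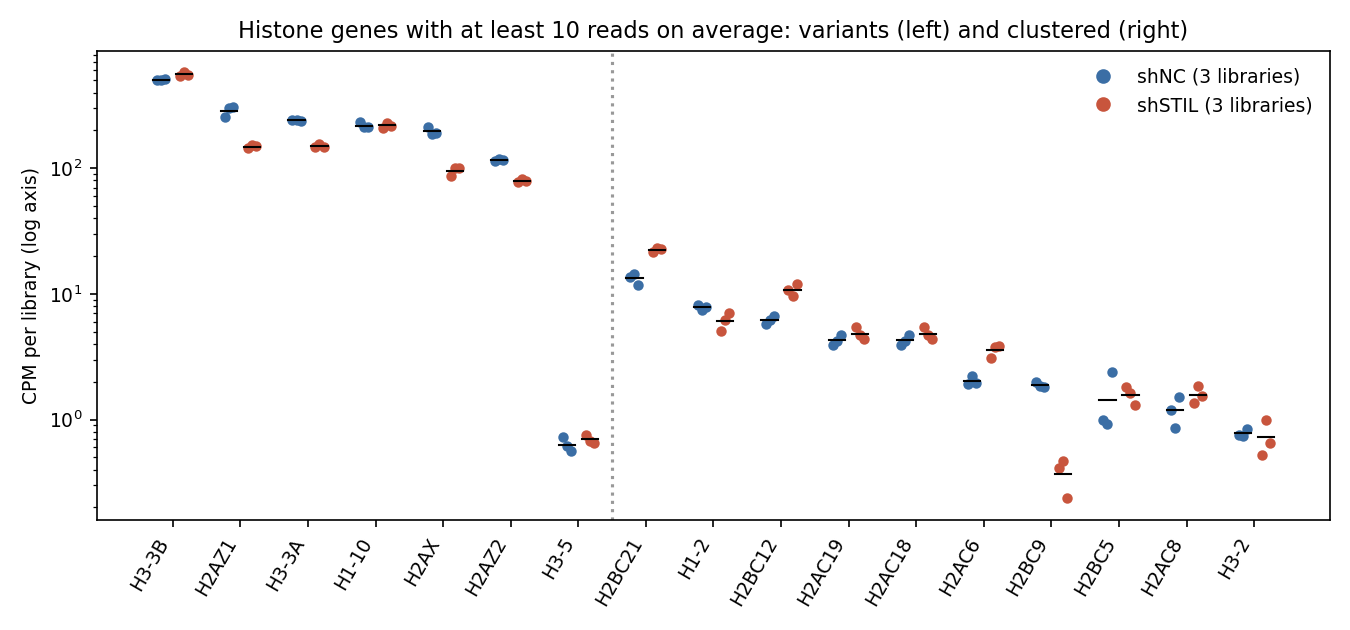
CPM in each library (log axis) of 7 variant and 10 clustered histone genes with a mean of at least 10 reads; points are libraries and lines are means of 3. Variants other than H3-5 have group means of at least 79.8 CPM, and clustered genes have group means of at most 22.4 CPM.

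Differences between shSTIL and shNC were tested with limma over all 15953 genes and called at an adjusted p under 0.01. This called 47.1% of all genes, 23.5% higher and 23.6% lower in shSTIL. Among the 9 variants 3 were higher, H3-3B and H1-7 among them, and 4 were lower (H2AX, H2AZ1, H2AZ2 and H3-3A), while H1-10 and H3-5 were not called, and the median log2 fold change was 0.0025. Of the 9 variants, 7 had a mean log2 CPM of at least 1, a level where limma called 61.9% of all genes. Among the 60 clustered genes 5 were higher (H2BC21, H2BC12, H2AC6, H4C3 and H2BC15), 2 were lower (H2BC9 and H2AC20) and 53 were not called. Their median log2 fold change was -0.16, against 0.01 for all genes, and it differed by level. It was 0.46 for the 6 clustered genes averaging log2 CPM 1 or higher. For the other 54, whose median was 2.51 reads, it was -0.19. All genes at the higher level had a median of -0.007, and all genes at the lower level 0.07. By edgeR, which called 49.1% of all genes (24.4% higher and 24.7% lower), 2 variants were higher and 4 lower, and 4 clustered genes were higher and 3 lower. The libraries of the groups did not overlap for 60.3% of all genes (29.9% higher and 30.5% lower), for 7 of the 9 variants (3 higher and 4 lower) and for 13 of the 60 clustered genes (4 higher and 9 lower).

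The share of clustered genes called has to be read against their level. Of the 60, 54 had a mean log2 CPM below 1, where limma called 10.9% of all genes (6.43% higher and 4.51% lower), and 2 of the 54 were higher and 2 lower. The other 6 had a mean of 1 or more, where 61.9% of all genes were called, and 3 of them were higher and 0 lower by limma, with 4 of 6 at an unadjusted p under 0.05 and H1-2 called lower by edgeR. In bulk RNA, fewer cells of a type, such as cells in S phase, and less RNA per cell cannot be told apart.

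Both genes of H2A.Z, the variant that replaces H2A at promoters, fell in shSTIL cells. H2AZ1 had 4101, 4880 and 4929 reads in shNC and 2463, 2636 and 2545 in shSTIL. H2AZ2 had 1849, 1938 and 1857 reads in shNC and 1323, 1426 and 1343 in shSTIL. All shSTIL libraries lay below all shNC libraries for both genes. The log2 fold change was -0.95 (SE 0.06, limma adjusted p = 1.24e-08) for H2AZ1 and -0.55 (SE 0.04, limma adjusted p = 3.28e-08) for H2AZ2. Together they summed to 405 CPM in shNC and 229 in shSTIL, 56.5% of the control. H2AZ1 made up 71.0% ± 1.91 (SD, n = 3) of their reads in shNC and 65.1% ± 0.290 in shSTIL, with no overlap between the groups.

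H2AX, the variant that is phosphorylated at DNA breaks and the only variant with the stem-loop, had the lowest log2 fold change of the variants, close to that of H2AZ1. It had 3404, 3073 and 3033 reads in shNC and 1484, 1726 and 1701 in shSTIL, so that each shSTIL library was below each control. The log2 fold change was -1.04 (SE 0.06, 95% confidence interval -1.17 to -0.92, limma adjusted p = 5.38e-09), and 48.6% of the control CPM was left.

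H3-3A and H3-3B encode the same protein, the replacement histone H3.3, and differed in direction. H3-3A had 3906, 3959 and 3760 reads in shNC and 2534, 2686 and 2491 in shSTIL. H3-3B had 8069, 8266 and 8189 reads in shNC and 9220, 10028 and 9390 in shSTIL. H3-3A was lower in every shSTIL library, at a log2 fold change of -0.68 (SE 0.03, limma adjusted p = 1.78e-09). For H3-3B the log2 fold change was 0.13 (SE 0.03, limma adjusted p = 0.00387), and the call was lost in 6 of 6 limma fits that left out 1 library and in 2 of 6 edgeR fits, those without shSTIL replicate 2 or 3. The share of H3-3B in the reads of both genes was 67.4, 67.6 and 68.5% in the shNC libraries and 78.4, 78.9 and 79.0% in the shSTIL libraries. These shares did not overlap, and an exact two-sided permutation test of 3 against 3 libraries cannot go below p = 0.1. The sum of both was 749 ± 2.23 CPM in shNC and 709 ± 27.1 in shSTIL, 94.6% of the control. H3-5, a retrocopy with 96.6% coding identity to H3-3B, had 9 to 11.6 reads in shNC and 11 to 13 in shSTIL and was not called (limma adjusted p = 0.676). Because RSEM divides reads between such similar sequences, its level is uncertain.

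Of the linker histones, H1-10 and H1-2 were not called by limma. H1-10, a variant made outside S phase, had 3727, 3459 and 3378 reads in shNC and 3579, 3963 and 3706 in shSTIL, with overlapping groups. Its log2 fold change was 0.0025 with a 95% confidence interval from -0.09 to 0.10 (limma adjusted p = 0.973). After a correction for GC content and transcript length the H1-10 log2 fold change was 0.16 and called higher (limma adjusted p = 0.000248). H1-2, the most abundant clustered linker histone gene, had 131, 121 and 126 reads in shNC and 87, 106 and 120 in shSTIL. All of its shSTIL libraries lay below the controls, yet the log2 fold change of -0.37 (SE 0.13) was not called by limma (adjusted p = 0.0308) and was called by edgeR (adjusted p = 0.00979). The edgeR call was lost in 5 of the 6 edgeR fits that left out a library, all but the one without shSTIL replicate 3, and DESeq2 did not make it (adjusted p = 0.066). H1-4 had 0 to 5 reads in any library and was not called. H1-7, a linker histone of spermatids, was counted as higher on 1, 0 and 0 reads in shNC and 3, 3 and 2 in shSTIL (limma adjusted p = 0.00864, edgeR adjusted p = 0.0727). These counts are at or under 3 reads, so no fold is given.

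**Figure D2:**
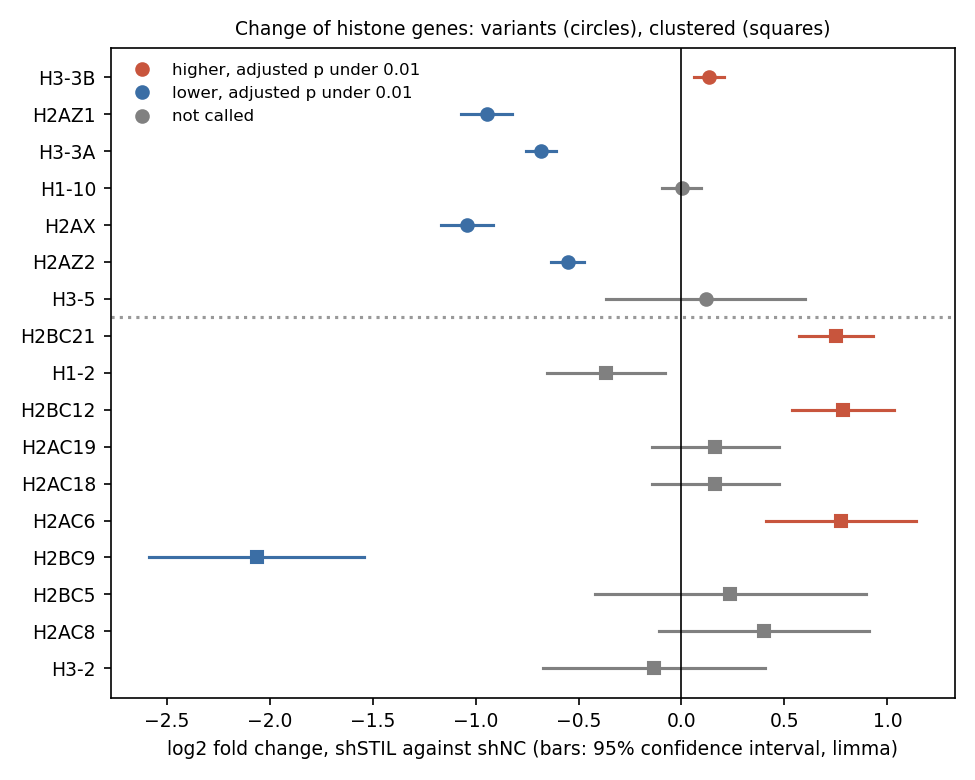
Log2 fold change of shSTIL against shNC with its 95% confidence interval from limma, for the same 17 genes; circles are variants, squares clustered genes, and colours give the call at an adjusted p under 0.01. Of the genes called, H2BC9, H2AX, H2AZ1, H3-3A and H2AZ2 lie below 0, while H2BC21, H2BC12, H2AC6 and H3-3B lie above. H1-2, not called, also has its whole interval below 0 (-0.65 to -0.08), and the intervals of the other genes shown include 0.

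Per kilobase of the annotated transcript, H2AZ1 had the highest control level, 294 CPM, and it was 152 CPM in shSTIL. Of the variants described here it was followed in shNC by H3-3B (188), H3-3A (184), H2AZ2 (156), H1-10 (145) and H2AX (122 CPM per kilobase). In shSTIL the order of the same genes was H3-3B (206), H2AZ1 (152), H1-10 (146), H3-3A (115), H2AZ2 (106) and H2AX (59.3 CPM per kilobase). The highest clustered gene on this scale was H2BC12, at 16.4 in shNC and 28.5 in shSTIL, although its annotated transcript is the coding sequence alone, which raises a value per length. H2BC21, the clustered gene with most reads, was at 6.06 and 10.2 CPM per kilobase of a transcript of 2194 bases.

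The clustered genes that rose with substantial counts were 2 H2B genes and 1 H2A gene. H2BC21 lies at chr1:149884459-149886652 on the minus strand and had 219, 235 and 188 reads in shNC and 366, 399 and 384 in shSTIL. H2BC12 lies at chr6:27146418-27146798 on the minus strand and had 93, 101 and 107 reads in shNC and 185, 167 and 204 in shSTIL. H2AC6 lies at chr6:26124145-26139116 on the plus strand and had 31, 36 and 31 reads in shNC and 53, 65 and 65 in shSTIL. For all 3 genes each shSTIL library was above each control, and the log2 fold changes were similar. They were 0.75 (SE 0.08, limma adjusted p = 3.95e-06) for H2BC21, 0.78 (SE 0.11, limma adjusted p = 5.10e-05) for H2BC12 and 0.77 (SE 0.17, limma adjusted p = 0.00143) for H2AC6. The H2AC6 call was lost in 4 of the 6 limma fits that left out 1 library (without shNC replicate 1 or 3 or shSTIL replicate 2 or 3) and in 0 of 6 edgeR fits.

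H2BC9, an H2B gene at chr6:26251651-26253710 on the plus strand, had the lowest log2 fold change of all members in the limma fit, whose prior count understates changes of genes with fewer reads. By edgeR it was at -2.32, and H2AC20, described next, was lower at -2.83. Some members with at most 3 reads in any library also had lower edgeR values and were not called. H2BC9 had 32, 30 and 29 reads in shNC and 7, 8 and 4 in shSTIL, and 19.6% of the control CPM was left. The log2 fold change was -2.06 (SE 0.24, limma adjusted p = 6.87e-06), and the call held in all 6 limma and 6 edgeR fits that left out a library. Its coding sequence is 94.0% identical to that of H2BC6, which had at most 2 reads in any library, and its octamer and stem-loop are printed above beside those of H2BC21.

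H2AC20 was singled out after its values were seen, because its start lies opposite that of H2BC21 with the octamer at chr1:149886710-149886739 in both promoters. H2AC20 had 13, 8 and 8 reads in shNC and 2, 2 and 0 in shSTIL. It fell while its neighbour H2BC21 rose, with a log2 fold change of -1.90 (SE 0.32, limma adjusted p = 0.00018). This call was lost in 5 of the 6 limma fits that left out 1 library, all but the one without shSTIL replicate 3, and in 0 of 6 edgeR fits. In the other pair printed above, H2BC4 had 4, 3 and 4 reads in shNC and 12, 4 and 14 in shSTIL beside the rise of H2AC6, with overlapping groups (limma adjusted p = 0.0388, not called). Of the 23 clustered genes with the octamer, whose median was 5.5 reads, 3 were higher and 2 lower, and of the 33 without it, whose median was 2.64 reads, 1 was higher and 0 were lower by limma, with 1 lower by edgeR. Limma called 47.1% of all genes and 10.9% of those with a mean log2 CPM below 1. Genes with and without the octamer were not compared at a matched level, and a part of the octamer in these counts was not tested.

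The remaining calls were made on few reads. H2BC15 gave the largest rise of the limma fit with 1, 0 and 0 reads in shNC and 6, 1 and 8 in shSTIL (limma adjusted p = 0.00886), although 1 shSTIL library equalled a control at 1 read. Its annotated transcript overlaps H2AC15 and H2AC16, so its reads are uncertain, and its call was lost in 5 of 6 limma fits that left out a library, all but the one without shSTIL replicate 2. H4C3 had 4, 2 and 4 reads in shNC and 7, 8 and 12 in shSTIL, and it was called by limma (adjusted p = 0.009) but not by edgeR (adjusted p = 0.0366) or in any of the 6 limma fits that left out a library. H4C12, whose coding sequence is identical to that of H4C11, had 3.07 to 7 reads in shNC and 3 to 5 in shSTIL and was not called. The most abundant clustered H3 genes, H3-2 with 9 to 17 reads and H3C4 with 3.25 to 8.8 reads in any library, were not called either, and both had reads divided with other genes in several libraries.

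Several clustered genes cannot be told apart by sequence. H2AC18 and H2AC19 have identical coding sequences and were given identical values of 63.5, 69 and 74.5 reads in shNC and 93, 80.5 and 74.5 in shSTIL. The groups met at 74.5 reads, and neither copy was called (log2 fold change 0.17, limma adjusted p = 0.362). H4C14 with H4C15 and H3C14 with H3C15 were likewise given identical values. The coding sequence of the median clustered gene was 90.1% identical to its closest member. Reads that were not whole, a sign of division between similar transcripts, occurred in 26.7% of the clustered genes against 17.7% of all genes, and in H3-3B and H3-5 of the variants. With each identical pair counted once, the 57 clustered genes still had 5 higher and 2 lower. In all, 20 members overlap another annotated gene, H2AZ1 and H3-3A among them, and whether the reads were counted by strand is not given in the sources used here.

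By protein family, the summed level of clustered H2B genes differed most between the groups. The 15 H2B genes summed to 24.2, 25.1 and 24.8 CPM in shNC and 37.8, 37.1 and 38.8 CPM in shSTIL, 153% of the control. The 15 H2A genes summed to 14.6 ± 0.575 CPM in shNC and 16.4 ± 0.385 in shSTIL, and the 4 H1 genes to 8.21 ± 0.161 and 6.42 ± 1.11 CPM, both without overlap. The sums of the 14 H3 genes (2.65 and 2.41 CPM) and of the 12 H4 genes (2.14 and 1.97 CPM) overlapped between the groups. These sums follow few genes. H2BC21, H2BC12 and H2AC6, picked after their values were seen, held 41.3% of the clustered reads in shNC and 56.6% in shSTIL, and the other 57 clustered genes summed to 30.7 ± 2.14 CPM in shNC and 28.3 ± 0.787 in shSTIL, with overlap. The 50 clustered genes with a mean under 10 reads summed to 9.02 ± 0.889 and 8.25 ± 1.15 CPM.

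**Figure D3:**
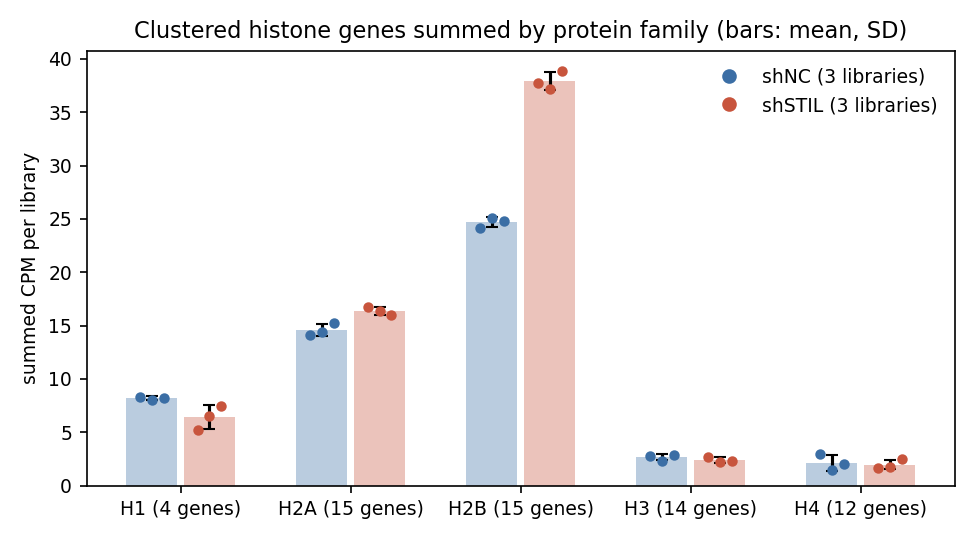
Summed CPM of the clustered histone genes by protein family; points are libraries, bars the mean of 3 and error bars the SD. The H2B sum lies between 24.2 and 25.1 CPM in shNC and between 37.1 and 38.8 CPM in shSTIL, and the H3 and H4 sums overlap.

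**Figure D4:**
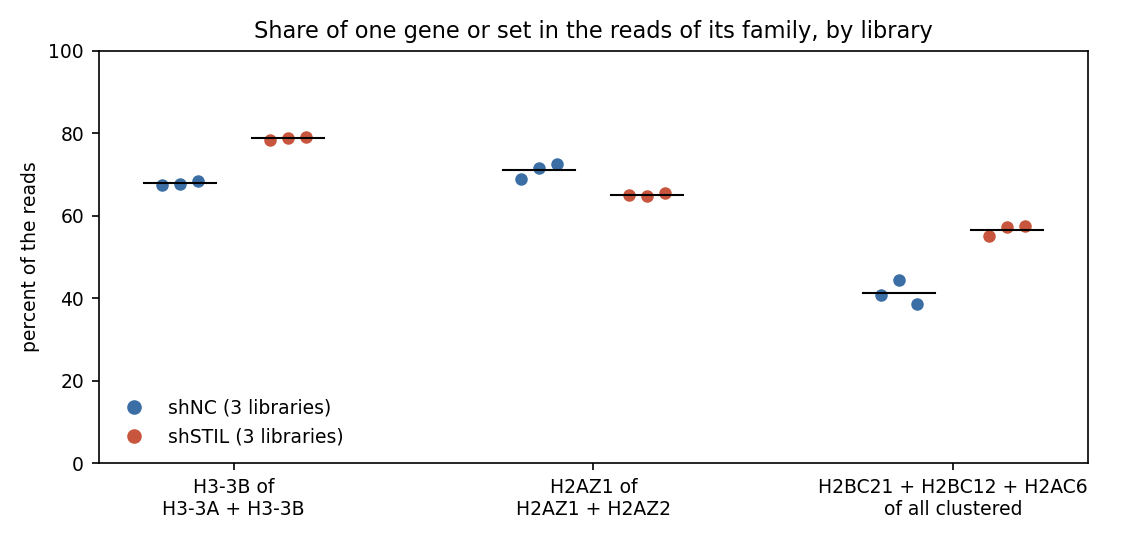
Percent of reads held by 1 gene or set within its family in each library; points are libraries and lines are means of 3. The mean share of H3-3B is 67.8% in shNC and 78.8% in shSTIL and that of H2AZ1 71.0 and 65.1%, and the set on the right was picked after its values were seen.

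Genes that make, process and place histones were mostly lower in shSTIL. Of 66 such genes, all with a mean log2 CPM over 1, 11 were higher and 38 lower by limma, where 30.5% of all genes at this level were higher and 31.4% lower. Their median log2 fold change was -0.25. The list was chosen by function and holds general cell cycle genes such as CCNE1, CCNE2, CDK2 and E2F1.

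Of 9 genes for histone gene transcription 1 was higher and 6 lower, where 30.5% of all genes at this level were higher and 31.4% lower. The 6 lower were NPAT, POU2F1 and the general cell cycle genes E2F1, CCNE1, CCNE2 and CDK2, and the higher one was YY1. NPAT, the coactivator of the clustered genes, had 469, 569 and 533 reads in shNC and 415, 406 and 379 in shSTIL, with no overlap. Its log2 fold change was -0.47 (SE 0.07, limma adjusted p = 6.09e-05), a call lost in 4 of the 6 limma fits that left out a library (all but those without shNC replicate 1 or 2) and in 0 of the edgeR fits. CASP8AP2, its partner in the histone locus body, was at -0.15 (SE 0.05) and was not called (limma adjusted p = 0.0218).

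Of 22 genes for 3' end processing and turnover of histone mRNA 5 were higher and 12 lower. SLBP, which binds the stem-loop, had 1392, 1469 and 1377 reads in shNC and 941, 1049 and 979 in shSTIL, a log2 fold change of -0.60 (SE 0.04, limma adjusted p = 7.32e-08). LSM10 and LSM11, the proteins particular to the U7 particle that directs the cleavage after the stem-loop, went the other way. LSM10 had 418, 380 and 430 reads in shNC and 556, 636 and 633 in shSTIL (log2 fold change 0.48, SE 0.07), and LSM11 was at 0.45 (SE 0.10). The LSM10 call was lost in 3 of the 6 limma fits that left out a library (without shNC replicate 1 or shSTIL replicate 2 or 3), the LSM11 call in 5 (all but the fit without shNC replicate 1), and both in 0 of the edgeR fits. ERI1, the exonuclease that trims histone mRNA ends, was at -0.23 (SE 0.06, limma adjusted p = 0.00672), a call lost in 6 of those 6 fits.

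Of 35 genes listed for chaperones and deposition, which include the histone variant CENPA among the lower ones, 5 were higher and 20 lower. The replication-coupled ones fell most among those named. ASF1B, which hands H3 and H4 to CAF-1, had 1509, 1519 and 1579 reads in shNC and 599, 657 and 602 in shSTIL, a log2 fold change of -1.40 (SE 0.05). CHAF1A and CHAF1B, subunits of CAF-1, fell by 1.13 and 0.97 on the log2 scale, and NASP, the chaperone of the soluble H3 and H4 pool, fell by 0.91. ASF1A, the paralog of ASF1B, was at -0.08 (SE 0.06) and was not called (limma adjusted p = 0.246).

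Of the factors that place H3.3, HIRA was higher (0.17, SE 0.04) and DAXX lower (-0.43, SE 0.05), while ATRX was at 0.08 (SE 0.05) and was not called. Of the partners of HIRA in its complex, named after their values were seen, UBN2 was higher (0.61, SE 0.05), CABIN1 was lower (-0.45, SE 0.04) and UBN1 was at 0.0037 (SE 0.05) and not called. HJURP, the chaperone of the centromeric H3 variant CENPA, was at -0.54 (SE 0.03), and CENPA itself at -0.22 (SE 0.05). SUPT16H and SSRP1, the subunits of FACT, a chaperone of H2A and H2B, were at -0.50 and -0.18 (each SE 0.03). For DAXX, HJURP, CENPA, SUPT16H and SSRP1 the limma adjusted p was at most 0.00113, and for HIRA it was 0.00315, a call lost in 1 of 6 limma fits (without shSTIL replicate 3) and in 4 of 6 edgeR fits that left out a library (all but those without shNC replicate 1 or shSTIL replicate 2).

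DNA replication genes moved with the shSTIL group too. All 22 genes of that list (MCM2 is in both lists) were lower, with a median log2 fold change of -1.13, and their summed level was 3556 ± 36.1 CPM in shNC and 1487 ± 8.03 in shSTIL, 41.8% of the control. Over the same libraries the clustered histone genes summed to 124% and the variants to 89.4% of the control. Without H2BC21, H2BC12 and H2AC6, picked after their values were seen, the other 57 clustered genes summed to 92.0%, with overlapping groups. The median log2 fold change of the 60 clustered genes was -0.16. By level it was 0.46 for the 6 averaging log2 CPM 1 or higher and -0.19 for the other 54. The 6 include H2BC21, H2BC12 and H2AC6. Whether the share of cells in S phase has a part in the histone values was not tested.

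**Figure D5:**
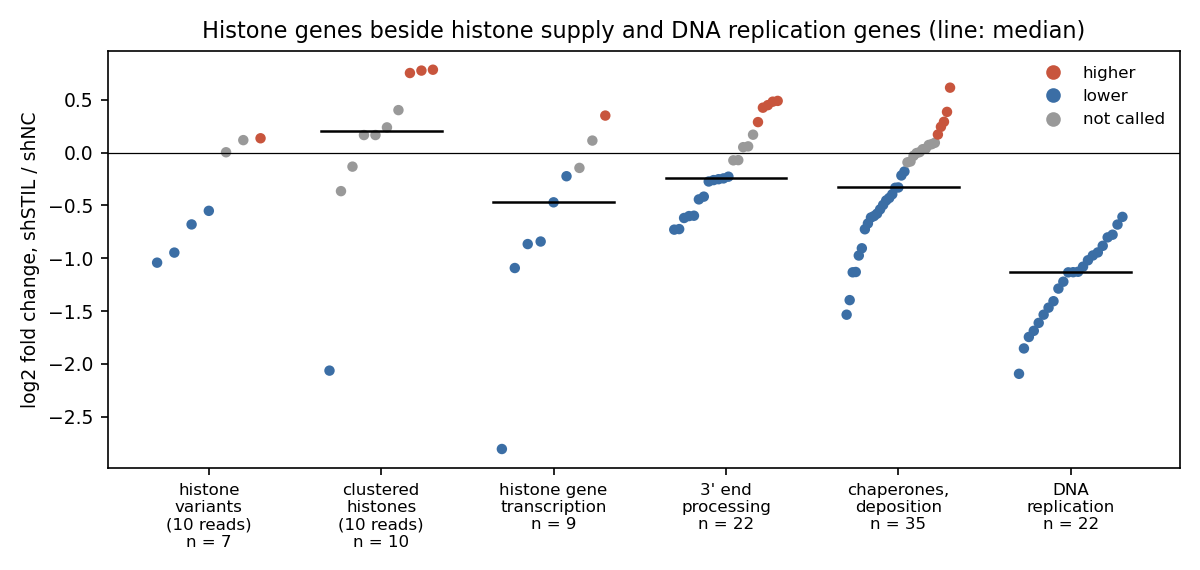
Log2 fold change of shSTIL against shNC for 7 variant and 10 clustered histone genes with a mean of at least 10 reads, for the 3 groups of histone supply genes and for DNA replication genes; points are genes, colours the limma call and lines the medians, with none drawn for the variants, of which not all are shown. All 22 replication genes lie at or below -0.61, whereas the 10 clustered histone genes spread from -2.06 to 0.78.

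Between the first and the last histone gene of the chromosome 6 cluster, chr6:26020490-27893843, lie 14 other genes of the table. Of these, 4 were higher (BTN2A2, BTN2A1, HMGN4 and ZNF322), 1 was lower (PRSS16) and 9 were not called, with a median log2 fold change of 0.04. Of all genes 47.1% were called, and 61.9% at the level of 12 of these 14. Of the 46 clustered members on chromosome 6, all in the same stretch, those called were H2BC12, H2AC6, H2BC9, H4C3 and H2BC15. Of all 60 clustered members, 54 had a mean log2 CPM below 1, where 10.9% of all genes were called. Of the histone variants outside the naming rule, MACROH2A1 was lower (log2 fold change -0.51, SE 0.03), as was H2AJ (-0.30, SE 0.05), and MACROH2A2 was at 0.17 (SE 0.07, limma adjusted p = 0.0599, not called).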

How the data were processed

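Total RNA was isolated from EJ cells, and RNA-seq was done on the BGISEQ-500 instrument in 3 shNC and 3 shSTIL libraries, grouped by the sample labels. Whether poly(A) or other RNA was then selected is not given in the sources used here. The submitters' processing notes name Bowtie2, RSEM, limma and hg38, and versions are not given in the sources used here. The authors deposited estimated counts from RSEM of 15957 genes for 4 of the libraries, without normalization. The authors also deposited log2 CPM of 15953 genes for all 6 libraries, made with edgeR, and these were tested because the count tables cover 1 shNC library only. RSEM divides reads between similar transcripts. The column headings name siRNA and the labels short hairpin RNA, and the labels were followed. There were 0 unused per-sample columns.

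Reads were recovered from the log2 CPM (prior count 2). In the 4 libraries with deposited estimated counts, which also set the scale there, the recovered reads differed from these by at most 0.000495 reads. For shNC replicates 2 and 3 the scale was the one that brought low values nearest to whole reads, without a count to compare. Of the values 87.5 to 87.8% were whole within 0.01. Confidence intervals are from the limma fit and, like its p-values, measure the spread between these libraries, which may be technical. CPM are the recovered reads over the scaled library size. Replicates of a group differed beyond sampling noise (chi-square per degree of freedom 1.69 to 3.49).

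The main test was limma 3.58.1 (mean-variance trend, no replicate block) in R 4.3.3 over all genes, with Benjamini-Hochberg adjustment and an adjusted p under 0.01. Fold changes are on the deposited log2 scale, whose prior count understates changes of low genes. Recovered reads were rounded to whole numbers for edgeR 4.0.16 (quasi-likelihood) and DESeq2 1.42.0 as alternatives, since the design had assumed whole counts. Single values were compared by an exact two-sided permutation test over 20 labellings (SciPy 1.17.1), whose smallest p is 0.1. The fits were also run on simulated data as a check of the code only, with far fewer genes changed than were called here. The simulation was not matched to the spread of these libraries.

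The members, the gene lists and the tests were chosen with earlier results of these data known. The text names every member called whose mean log2 CPM was 1 or more, every variant but 1, the 2 clustered genes of each family with the highest CPM per kilobase, the largest rise and fall, and fixed supply genes. H2AC20, H2BC4, H2BC5, H2AC8 and the 3 genes outside the rule were chosen after their values were seen. Coordinates, transcripts and stem-loops are from GENCODE 29 (GRCh38), which matched 69 of 69 members, and promoters are from RefSeq (GRCh38.p14), which matched 63. Where the sources differ in a gene's start, the promoter follows RefSeq. The values of 1 variant gene are not reported here, and it stays in the counts and sums over the variants.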

Additional observations from a re-analysis of the deposited data

How the results depend on the processing

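The calls of clustered genes rest on few reads, and 54 of the 60 have a mean log2 CPM below 1, so that a change there was often not detectable at this depth. The 5 clustered genes higher in shSTIL became 3 with DESeq2, 3 without the mean-variance trend, 3 with quantile normalization, 3 when only genes of mean log2 CPM 1 or more were fitted, and 2 when tested against a 1.2-fold change. They ranged from 2 to 4 when limma left out 1 library and from 3 to 5 when edgeR did, a setting added after seeing the data. The 2 lower, H2BC9 and H2AC20, are both removed when only genes of mean log2 CPM 1 or more are fitted, where the 1 gene called lower is H1-2. The count of lower genes was 4 at an adjusted p under 0.05 and ranged from 1 to 2 (limma) and 2 to 3 (edgeR) without 1 library. The 3 higher variants became 0 against a 1.2-fold change and ranged from 1 to 2 without 1 library with either tool, whereas the 4 lower variants stayed at 4 in each of these fits. The 11 higher supply genes became 7 without the trend and 3 against a 1.2-fold change, and ranged from 6 to 10 (limma) and 10 to 11 (edgeR) without 1 library. The cause of these moves was not tested.

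The replicate numbers did not pair the libraries: the deviations of same-numbered libraries correlated at -0.12, -0.06 and -0.11. With the replicate block 4 clustered genes were higher and 2 lower, 1 variant was higher and 4 lower, 11 supply genes were higher and 37 lower, and STIL was at -1.99.

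Log2 fold changes that reversed were all of differences that were not called. The H1-10 log2 fold change ranged from -0.0336 to 0.0461 by limma without 1 library, was at -0.0156, -0.0177 and -0.0345 by edgeR without shNC replicate 2, shNC replicate 3 and shSTIL replicate 2, and was at 0.156 and called once GC content and length were corrected. The H1-4 log2 fold change was -0.011 by edgeR without shNC replicate 3. The H3-2 log2 fold change ranged from -0.351 to 0.0377 by limma without 1 library and was at 0.0560 by edgeR without shSTIL replicate 1 and at 0.0295 with the GC content correction. The H3C4 log2 fold change ranged from -0.422 to 0.0273 by limma without 1 library and was at 0.0809 and 0.0402 by edgeR without shSTIL replicate 1 and without shNC replicate 1. The ATRX log2 fold change was -0.0522 with the GC content correction.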
